A study of Mus musculus with 10 samples.

Results

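Primary microglia from newborn mice were compared with BV2 cells, an immortalised mouse microglial line, in libraries made without lipopolysaccharide (LPS). The comparison rests on 5 of the 10 RNA-seq libraries of the series, 3 of primary microglia and 2 of BV2 cells, and takes in every gene past a filter on low counts (11626 of 24411 gene symbols). The 3 primary libraries come from microglia of 3-day-old ICR mouse pups. Whole brains of 12 pups, freed of blood vessels and meninges, were pooled, digested and kept as a mixed glial culture in 20% serum. The microglia were then shaken off and plated again. The protocol reports that more than 92% of the collected cells carried CD11b, the integrin chain encoded by Itgam. The 2 BV2 libraries come from a single line grown in 10% serum. Cells of both kinds received EPZ-6438, a small-molecule inhibitor of the histone methyltransferase EZH2, at 10 uM for 4 h. All values thus describe cells under the inhibitor, and untreated cells were not analysed here. Cell type, line, mouse strain and medium change together between the groups and cannot be told apart. The labels do not say that the libraries of a group came from separate cultures, so the spread behind each p-value may be technical.

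Microglia are the resident macrophages of the brain. They depend on the receptor CSF1R and the transcription factor PU.1 for survival, and on TGF-beta signals from the tissue for a set of surface genes that other macrophages lack, such as P2ry12, Tmem119 and Sall1. In culture with serum this set is known to fade. BV2 cells were made by infecting mouse microglia with a retrovirus that carries oncogenes, myc among them, and they divide without an added growth factor.

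Gene counts per library were 2.75 to 3.11 M (1e6) in primary microglia and 2.78 and 2.81 M in BV2 cells, and 74.2% to 79.5% of all reads in these files stood in the entries that name no gene (unmapped, multimapping, outside genes or ambiguous). Rn45s, the precursor of ribosomal RNA, took 40.9% to 51.7% of gene counts in primary microglia and 27% and 30.1% in BV2 cells. Without it and 4 other abundant entries (Lars2, Mir6236, Rpph1 and Rmrp), each primary library kept 1.11 to 1.33 M counts and each BV2 library 1.57 or 1.71 M. Lars2 is a protein-coding gene and took 6.82% to 7.24% of gene counts in primary microglia and 9.22% and 9.70% in BV2 cells. With no read, a gene could still lie at up to 0.93 to 1.22 CPM (counts per M gene counts) in a library. Such limits and all intervals below cover counting error only. Across genes, log2 levels correlated at 0.970 to 0.975 between primary libraries, at 0.989 between the BV2 libraries, and at 0.559 to 0.613 between the kinds of cell. These correlations run across genes, which are no replicates. Levels below are CPM on scaled library sizes, given as mean ± SD. Differences are log2 of primary microglia over BV2 ± SE, with Benjamini-Hochberg adjusted p-values over all 11626 genes from edgeR's quasi-likelihood test. The threshold for a call was an adjusted p of 0.05.

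Most genes differed. Of 11626 genes, 8611 (74.1%) were called, 4830 (41.5%) higher in primary microglia and 3781 (32.5%) higher in BV2 cells. With a difference of at least 2-fold added to the call, 3847 genes (33.1%) were higher in primary microglia and 2627 (22.6%) in BV2 cells, together 6474 (55.7%). The libraries of the groups did not overlap in 84.1% of genes, with primary microglia above in 46.9% and BV2 cells above in 37.2%. These shares are the background for every list below, and "2-fold higher" there means called and at least 2-fold. A gene with few or no reads in one kind of cell could pass the filter only through libraries where it was high, so counts over tested members do not stand for all listed members. The filter ran over all 10 libraries, so a gene could also pass it through libraries with LPS and have few or no reads here. Large differences were more common on the primary side. At least 8-fold differences were called for 1540 genes higher in primary microglia and 454 higher in BV2 cells, and at least 32-fold for 480 and 106. In 1184 genes called higher in primary microglia, the BV2 libraries held no read at all, against 29 genes in the other direction. The split depends on scaling. With library totals and no scaling factor, modest calls such as that of Itgam named below were lost, and 49.4% of the 2-fold calls were higher in primary microglia, against 59.4% as fitted, and the median over all genes moved by -0.30 on the log2 scale. The median over all genes as fitted was 0.23.

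**Figure D1:**
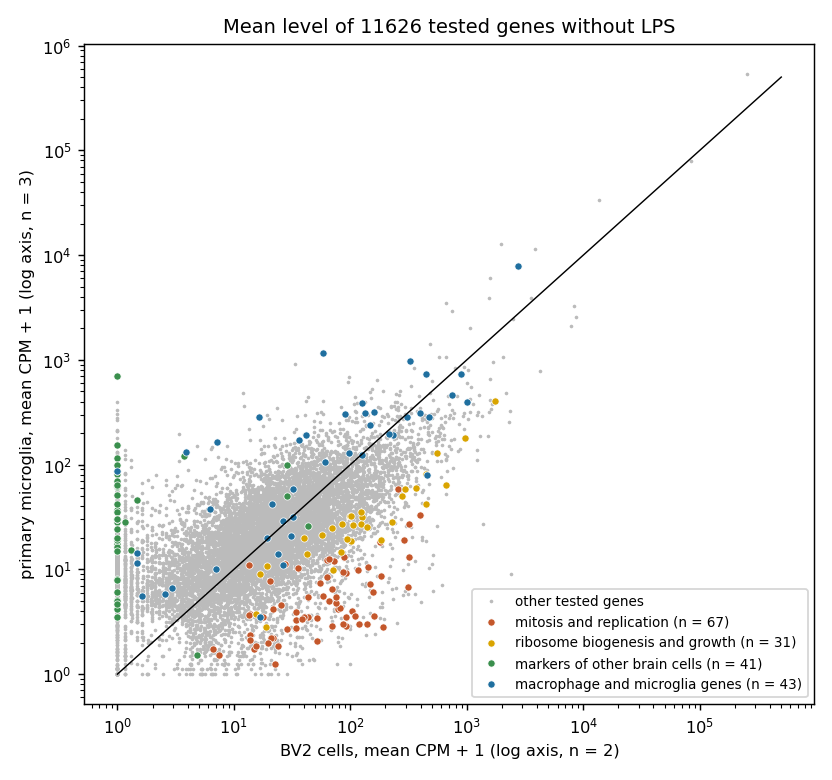
Mean level of each of the 11626 tested genes in BV2 cells (x axis, CPM + 1, log scale, n = 2) and primary microglia (y axis, CPM + 1, log scale, n = 3), with the line of equal levels. Mitosis and replication genes lie below the line, and markers of other brain cells lie mostly at the left edge, where BV2 cells have no read.

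Genes of cell division were higher in BV2 cells throughout. All 31 tested mitosis genes were 2-fold higher in BV2 cells (median log2 difference -4.54). Aurka, the mitotic kinase Aurora A, was at 2.62, 0.816 and 2.11 CPM in the primary libraries and at 201 and 175 CPM in the BV2 libraries. It was 102-fold higher in BV2 cells (log2 difference -6.61 ± 0.25, adjusted p = 2.1e-18), the largest difference in the list. Plk1, a kinase of mitotic entry and spindle assembly, was at 2.62, 1.63 and 1.75 CPM against 144 and 134 CPM (69.3-fold, log2 difference -6.08 ± 0.23, adjusted p = 4.5e-18). Ccnb1, cyclin B1, was at 2.57 ± 1.2 CPM in primary microglia and 159.5 ± 5.18 CPM in BV2 cells (log2 difference -5.90 ± 0.22, adjusted p = 2.8e-18). Cdk1, its partner kinase, was at 7.73 ± 0.944 CPM and 181 ± 3.57 CPM (log2 difference -4.54 ± 0.18, adjusted p = 8.5e-18). No primary library came near a BV2 library in these genes. Mki67, the gene of the proliferation antigen Ki-67, differed least evenly, with 12.7, 12.7 and 8.77 CPM in primary microglia and 37.3 and 86.7 CPM in the BV2 libraries (log2 difference -2.45 ± 0.54, adjusted p = 0.0048). The BV2 libraries differed from each other here, and both stayed above the primary libraries. Top2a, the topoisomerase that untangles chromosomes, was at 8.82 ± 3.12 CPM and 115 ± 27.8 CPM.

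DNA replication genes followed. Of 36 tested, 35 were 2-fold higher in BV2 cells, with a median of -3.59. The exception was Slbp, which binds histone mRNA, at 10.1 ± 1.78 CPM in primary microglia and 12.5 ± 3.23 CPM in BV2 cells (log2 difference -0.32 ± 0.28, adjusted p = 0.3). Tk1, the thymidine kinase of S phase, differed most, with 1.87, 1.63 and 2.46 CPM in primary microglia and 122 and 112 CPM in BV2 cells (58.9-fold, log2 difference -5.84 ± 0.23, adjusted p = 6.1e-18). The helicase subunit Mcm5 was at 8.97, 13.5 and 14 CPM and 339.7 and 300.3 CPM (26.3-fold, log2 difference -4.71 ± 0.17, adjusted p = 1.2e-18). Mcm6 was at 26 ± 2.08 and 319 ± 13.4 CPM, and Rrm1, a subunit of ribonucleotide reductase, at 32.1 ± 4.87 and 394 ± 13.3 CPM. Pcna, the replication clamp that also serves in repair, differed by less, at 57.2 ± 16.2 and 254 ± 14.3 CPM (4.44-fold, log2 difference -2.14 ± 0.16, adjusted p = 4.5e-12). Replication-linked histone genes are not in this list, but Hist1h2bh (2.24, 1.22 and 2.81 against 269 and 233 CPM) and Hist1h3g (1.87, 1.63 and 0.702 against 156 and 165 CPM) were among the 12 largest differences towards BV2 cells over all genes with at least 20 CPM. Histone genes have near-identical copies, so the share of each copy is uncertain.

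Promoters are shown for 3 of these genes, all higher in BV2 cells, because they hold letters known from cell cycle promoters. The window runs from 160 bases before the start site to 20 bases from it on, taken from RefSeq on the mm10 build, strand minus in each. Capitals mark CCAAT (the CCAAT box, bound by NF-Y) and TTTGAA (the cell cycle homology region of late cell cycle genes) in Ccnb2, cyclin B2, and Cdc20, an activator of the anaphase-promoting complex, and TTTGGCGC (letters of an E2F site) in Mcm6. The windows are chr9:70421535-70421714 for Ccnb2, chr4:118437324-118437503 for Cdc20 and chr1:128359686-128359865 for Mcm6.
Ccnb2: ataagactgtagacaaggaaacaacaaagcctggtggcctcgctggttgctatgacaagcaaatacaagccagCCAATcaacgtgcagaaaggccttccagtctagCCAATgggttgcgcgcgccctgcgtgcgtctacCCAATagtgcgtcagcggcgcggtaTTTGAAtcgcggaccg
Cdc20: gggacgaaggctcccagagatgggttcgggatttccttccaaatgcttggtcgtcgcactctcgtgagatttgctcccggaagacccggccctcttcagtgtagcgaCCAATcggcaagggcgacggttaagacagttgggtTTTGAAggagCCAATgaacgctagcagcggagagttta
Mcm6: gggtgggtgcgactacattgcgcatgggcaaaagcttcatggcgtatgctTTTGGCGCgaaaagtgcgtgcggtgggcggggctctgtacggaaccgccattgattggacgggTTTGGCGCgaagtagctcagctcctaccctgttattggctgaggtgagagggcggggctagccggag
Ccnb2 was at 1.87, 1.63 and 2.46 CPM in primary microglia and 86.2 and 84.1 CPM in BV2 cells (log2 difference -5.38 ± 0.24, adjusted p = 7.4e-17), Cdc20 at 4.11, 1.63 and 3.86 and 77.5 and 77.8 CPM (log2 difference -4.56 ± 0.24, adjusted p = 3.5e-15). Matches were counted on both strands of 300-base windows around the start, 1 window a gene. Of the mitosis genes with a window, 17 of 27 (63.0%) held both CCAAT and TTTGAA, against 7.12% of 27025 mouse promoters and 4.85% of those of tested genes. TTTGAA alone was in 74.1% of the mitosis windows and 18.1% of all. An E2F match (TTTCCCGC, TTTGGCGC, TTCCCGCC or TTGGCGCC, which overlap each other) was in 15 of 30 replication windows, in 2 of 27 mitosis windows (7.41%), in 3.87% of all promoters and in 7.33% of those of tested genes, so the mitosis share was close to that of tested genes. A match is a description of these letters and not evidence of binding.

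The brakes on the cycle were split between the cells. Of 34 tested cyclins, inhibitors and p53 pathway genes, 17 were 2-fold higher in primary microglia and 9 in BV2 cells. Cdkn1a, the inhibitor p21, was at 84.5, 87.8 and 79.7 CPM in primary microglia and 14 and 9.89 CPM in BV2 cells (7.03-fold higher in primary microglia, log2 difference 2.80 ± 0.18, adjusted p = 2.0e-13). Cdkn1b, the inhibitor p27, was at 46.1 ± 4.29 and 9.52 ± 4.14 CPM (log2 difference 2.26 ± 0.24, adjusted p = 4.2e-09). Rb1, the retinoblastoma protein that restrains E2F factors, was at 35.1 ± 2.16 and 6.73 ± 0.276 CPM. The p53 target genes Trp53inp1 and Phlda3 were nearly or fully absent from BV2 cells. Trp53inp1 was at 95.7, 90.2 and 96.2 CPM in primary microglia and had 1 read in each BV2 library (ratio 294, 95% counting interval 81.2 to 2434). Phlda3 was at 22.4, 24.9 and 26.7 CPM and had no read in BV2 cells (at least 51.4-fold higher, against 3 counts over both BV2 libraries). Mdm2, which p53 induces and which degrades it, was at 46.6 ± 4.21 and 14.3 ± 3.49 CPM (log2 difference 1.69 ± 0.20, adjusted p = 3.0e-08). Trp53 itself went the other way, at 47.5, 43.7 and 48.4 CPM in primary microglia and 133 and 114 CPM in BV2 cells (2.65-fold higher in BV2, log2 difference -1.40 ± 0.14, adjusted p = 1.4e-09). Not every p53 target was lower in BV2 cells: Bax, a promoter of cell death, was 1.71-fold higher there (log2 difference -0.77 ± 0.15, adjusted p = 4.4e-05), though with a length trend as offset (described at the end) it was not called (log2 0.09, adjusted p = 0.56). Cdkn2a, the locus of the inhibitors p16 and p19ARF, was at 0.747, 2.86 and 3.51 CPM in primary microglia and 18.7 and 22.4 CPM in BV2 cells (log2 difference -3.09 ± 0.40, adjusted p = 2.7e-07). Its neighbour Cdkn2b was at 6.56 ± 1.15 and 1.29 ± 0.506 CPM, higher in primary microglia. Among the D cyclins, Ccnd1 and Ccnd3 were 3.4-fold and 3.48-fold higher in BV2 cells, and Ccnd2 was 2.66-fold higher in primary microglia. Cdk4, their kinase, was at 94.3 ± 10.7 and 358 ± 35.8 CPM.

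The myc oncogene used to make the line was examined through its mouse counterpart. Myc was low in both and higher in primary microglia, at 15.3, 10.6 and 11.9 CPM against 0.622 and 0.659 CPM (log2 difference 4.22 ± 0.46, adjusted p = 5.4e-09). The viral copy was not analysed here, and the sources used here do not give whether its reads were counted under the mouse gene. Genes known to respond to MYC in ribosome production and growth were called higher in BV2 cells in 31 of 31 tested members, 29 of them 2-fold (median -2.32). Odc1, which starts polyamine synthesis, was at 56.8, 58 and 71.9 CPM in primary microglia and 688 and 635 CPM in BV2 cells (10.6-fold, log2 difference -3.41 ± 0.14, adjusted p = 1.2e-17). Phgdh, the first enzyme of serine synthesis, was at 41.2 ± 5.16 and 443 ± 25.1 CPM (log2 difference -3.42 ± 0.15, adjusted p = 6.8e-17). The nucleolar proteins Npm1 and Ncl were at 180.2 ± 15.1 and 49.5 ± 7.87 CPM in primary microglia and at 962 ± 64.3 and 275 ± 55.9 CPM in BV2 cells. Genes induced by ERK signalling did not go with BV2 cells: of 24 tested, 14 were 2-fold higher in primary microglia and 1 in BV2 cells (13 and 2 without BV2 replicate 2, 13 and 3 with no scaling factor). Spry2, an inhibitor of receptor kinases, was at 19.8 ± 1.75 CPM in primary microglia and 7.7 ± 0.768 CPM in BV2 cells (log2 difference 1.37 ± 0.27, adjusted p = 6.5e-05), and Dusp6, an ERK phosphatase, at 39.6 ± 2.4 and 26.7 ± 3.66 CPM (log2 difference 0.57 ± 0.18, adjusted p = 0.0063), a call lost without BV2 replicate 2 (log2 0.42, adjusted p = 0.1). Etv5, another gene downstream of ERK, was higher in BV2 cells (log2 difference -0.87 ± 0.19, adjusted p = 0.00016).

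Energy genes were mostly higher in BV2 cells. In glycolysis, 12 of 26 tested genes were 2-fold higher in BV2 cells and 5 in primary microglia. Ldha, which makes lactate from pyruvate, was at 256, 236 and 268 CPM in primary microglia and 2414 and 2214 CPM in BV2 cells (9.13-fold, log2 difference -3.19 ± 0.14, adjusted p = 3.3e-17). Pkm, the last kinase of the pathway, was at 776 ± 80.8 and 4225 ± 294 CPM, and Pgk1 at 112 ± 4.78 and 661 ± 11.3 CPM. Eno3, the muscle form of enolase, was at 2.24, 2.86 and 2.11 CPM against 83.1 and 79.8 CPM (33.9-fold). The glucose transporter Slc2a3 had no read in BV2 cells and 11.6, 11.4 and 8.42 CPM in primary microglia (at least 21.8-fold higher). The hexokinase Hk2 was 3.09-fold higher in primary microglia (log2 difference 1.62 ± 0.40, adjusted p = 0.0038). The part of other brain cells, whose marker sums are given below, in these glucose genes was not tested. In the nuclear-encoded respiratory chain, 23 of 31 tested genes were 2-fold higher in BV2 cells and 0 in primary microglia (median -1.41). Sdha, of complex II, did not differ detectably (log2 difference -0.09 ± 0.13, adjusted p = 0.55). These transcripts are short (median 1661 bases), and with the length trend of each library as offset the count was 11 in BV2 cells and 1 in primary microglia, so this count depends on that scaling.

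**Figure D2:**
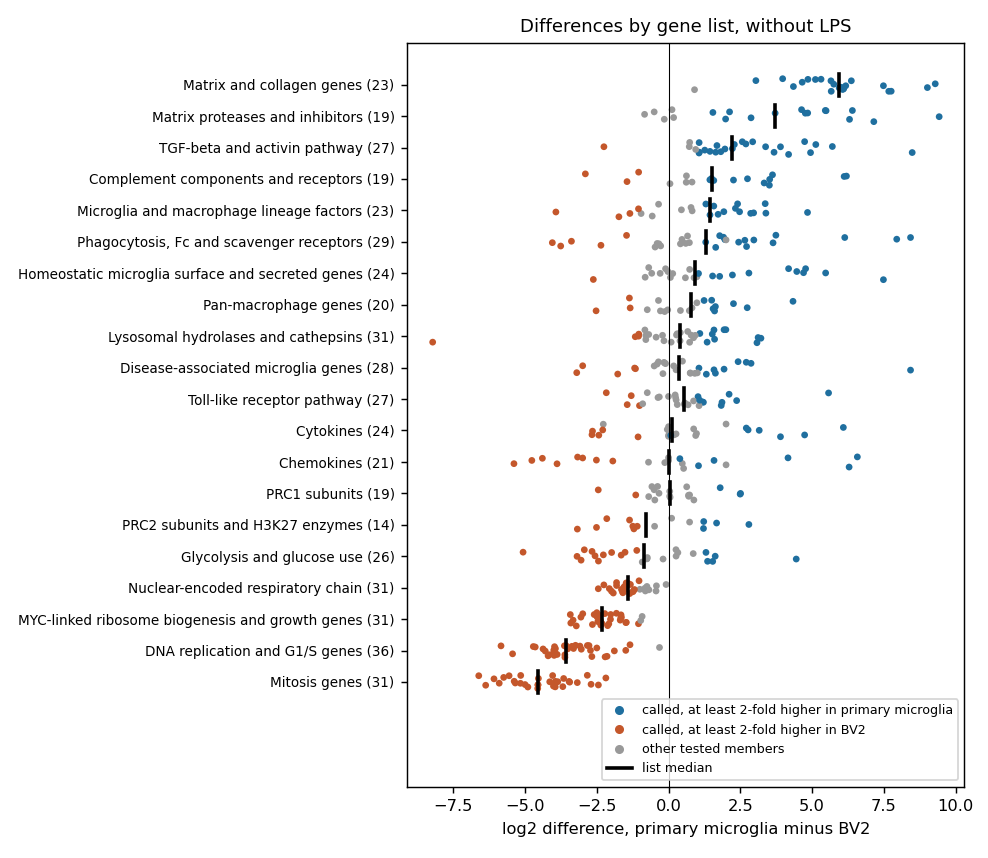
Log2 difference (x axis, primary microglia minus BV2 cells) of each tested member of 20 gene lists (y axis, number tested in parentheses). Each point is a gene, members at 0 in a group are drawn at their lower bound, and the black bar is the list's median. Mitosis, replication and growth genes lie left of 0, and matrix and most TGF-beta pathway genes lie right of it.

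The macrophage label held in both cells. Of the pan-macrophage genes used as markers, Ptprc (CD45) was at 121, 120.0 and 128 CPM in primary microglia and 125 and 126 CPM in BV2 cells (log2 difference -0.03 ± 0.14, adjusted p = 0.86). Tyrobp, the adaptor DAP12, was at 307 ± 28.4 and 392 ± 10.2 CPM, and Adgre1 (F4/80) at 191 ± 17.3 and 233 ± 13.1 CPM. The small differences in these genes depend on settings. Tyrobp was called higher in BV2 cells as fitted (log2 difference -0.35 ± 0.12, adjusted p = 0.013) and higher in primary microglia with the length trend as offset (log2 0.92, adjusted p = 3.5e-08). It lost its call without primary replicate 1 (log2 -0.32, adjusted p = 0.072), primary replicate 2 (log2 -0.28, adjusted p = 0.11) or BV2 replicate 1 (log2 -0.34, adjusted p = 0.074). The call of Adgre1 (log2 difference -0.28 ± 0.12, adjusted p = 0.038) was lost when any 1 of the 5 libraries was left out (adjusted p from 0.056 to 0.23). Ptprc was called higher in BV2 cells with the length trend as offset (log2 -0.61, adjusted p = 0.0004). Itgam, the chain counted in the purity check, was at 104 ± 20.3 and 59 ± 4.23 CPM (1.76-fold higher in primary microglia, log2 difference 0.82 ± 0.16, adjusted p = 4.3e-05). Of 20 tested members, 8 were 2-fold higher in primary microglia and 3 in BV2 cells, against 33.1% and 22.6% of all genes. Mpeg1, a pore-forming protein of phagosomes, differed most, at 1166, 1122 and 1205 CPM in primary microglia and 56 and 59.3 CPM in BV2 cells (20.2-fold, log2 difference 4.34 ± 0.14, adjusted p = 2.4e-19). Lyz2, lysozyme, was at 7670.1, 6859 and 8826 and 2839 and 2659 CPM (2.83-fold), and Cd68, a lysosomal glycoprotein, at 387 ± 14.7 and 125 ± 12.1 CPM (3.1-fold). Coro1a, an actin-binding protein of leukocytes, went the other way, with 74, 81.2 and 79.3 CPM in primary microglia and 469 and 431 CPM in BV2 cells (5.76-fold, log2 difference -2.53 ± 0.13, adjusted p = 1.8e-15). Aif1, which encodes IBA1, was low in both, at 4.11, 4.9 and 5.26 CPM and 2.49 and 0.659 CPM (log2 difference 1.55 ± 0.50, adjusted p = 0.0069), and without BV2 replicate 2 its call was lost (log2 0.91, adjusted p = 0.14).

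Genes that set microglia of the healthy brain apart were partly absent from both cells. Siglech had no read in any of the 5 libraries, and Gpr34 had 2.24, 1.22 and 2.11 CPM in primary microglia, no read in BV2 cells and too few counts to be tested. P2ry12, the ADP receptor that guides microglial processes, was at 4.11, 6.94 and 5.97 CPM in primary microglia and 0.933 and 2.97 CPM in BV2 cells (log2 difference 1.53 ± 0.49, adjusted p = 0.0064), and without BV2 replicate 1 the call was lost (log2 0.90, adjusted p = 0.15). Tmem119 was higher in BV2 cells, at 2.24, 2.45 and 2.81 CPM in primary microglia and 18 and 13.2 CPM in BV2 cells (6.25-fold, log2 difference -2.62 ± 0.34, adjusted p = 1.1e-07). Other members were abundant in primary microglia. Cx3cr1, the receptor for the neuronal chemokine fractalkine, was at 129, 141 and 119 CPM against 2.8 and 2.97 CPM (45-fold, log2 difference 5.47 ± 0.23, adjusted p = 3.3e-17). Fcrls, an Fc receptor-like gene of mouse microglia, was at 177, 129 and 184 CPM against 6.84 and 5.6 CPM (26.2-fold, log2 difference 4.70 ± 0.24, adjusted p = 6.5e-15). The TGF-beta receptor subunit Tgfbr1 was at 277, 274 and 297 CPM against 14.6 and 16.5 CPM (18.2-fold, log2 difference 4.18 ± 0.19, adjusted p = 9.3e-17). In these 3 genes every primary library was more than 10 times any BV2 library. Olfml3 was at 36.8 ± 5.51 and 5.24 ± 1.82 CPM (log2 difference 2.80 ± 0.28, adjusted p = 1.3e-09). Trem2, the lipid receptor that signals through Tyrobp, did not differ detectably, at 283 ± 14.5 and 304 ± 27.6 CPM (log2 difference -0.11 ± 0.13, adjusted p = 0.47), but was called higher in BV2 cells with the length trend as offset (log2 -0.47, adjusted p = 0.0022). Csf1r was at 355, 331 and 257 CPM in primary microglia and 133 and 184 CPM in BV2 cells (log2 difference 0.99 ± 0.33, adjusted p = 0.028), and with the length trend as offset it missed the threshold (log2 0.64, adjusted p = 0.078), as it did without BV2 replicate 1 (log2 0.76, adjusted p = 0.14). Of 24 tested members in all, 11 (45.8%) were 2-fold higher in primary microglia and 1 (4.17%, Tmem119) in BV2 cells. Sparc had the largest difference of the list, and astrocytes and fibroblasts express it as well. It had no read in BV2 cells and 87.8, 104 and 66.7 CPM in primary microglia (at least 179-fold higher).

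**Figure D3:**
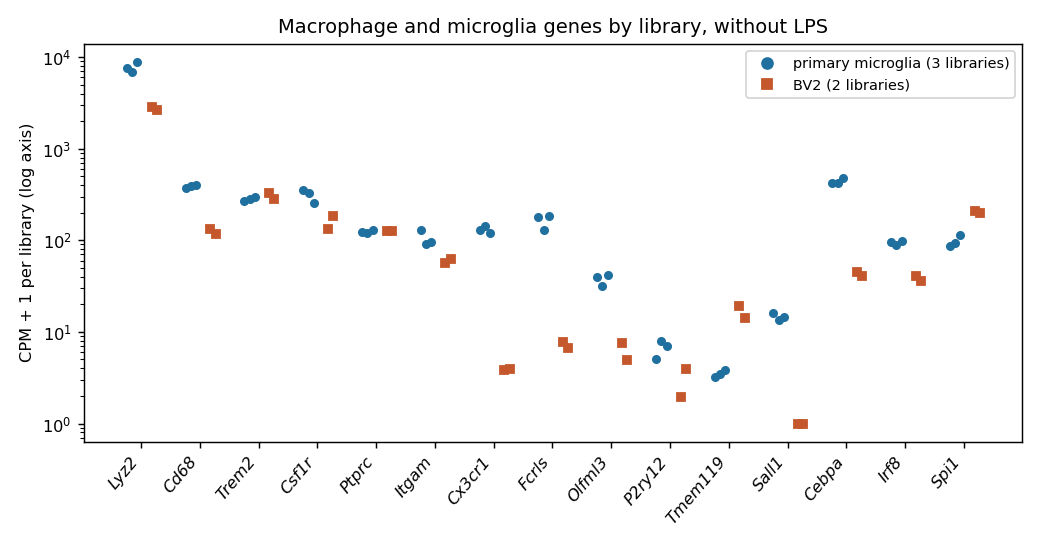
CPM + 1 (y axis, log scale) of 15 macrophage and microglia genes (x axis) in each of the 3 primary microglia libraries (circles) and the 2 BV2 libraries (squares). Cx3cr1, Fcrls, Sall1 and Cebpa are clearly higher in primary microglia, Ptprc and Trem2 overlap, and Tmem119 and Spi1 are higher in BV2 cells.

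Most lineage transcription factors were read in both cells, at different levels. Spi1, which encodes PU.1, was at 86.7, 92.6 and 114 CPM in primary microglia and 208 and 196 CPM in BV2 cells (2.07-fold higher in BV2, log2 difference -1.05 ± 0.14, adjusted p = 3.2e-07). Cebpa, a factor of the myeloid lineage that binds beside PU.1, was at 418, 419.6 and 481 CPM against 43.5 and 40.2 CPM (10.5-fold higher in primary microglia, log2 difference 3.39 ± 0.16, adjusted p = 3.9e-16). Irf8 was at 92.4 ± 4.57 and 37.5 ± 3.67 CPM (log2 difference 1.30 ± 0.16, adjusted p = 3.3e-08) and Runx1 at 45.7 ± 8.3 and 8.21 ± 2.37 CPM (log2 difference 2.47 ± 0.31, adjusted p = 7.4e-07). Mef2a was 7.8-fold higher in primary microglia (log2 difference 2.96 ± 0.19, adjusted p = 1.4e-13), while its relative Mef2c did not differ detectably (log2 difference 0.45 ± 0.23, adjusted p = 0.081), though it passed the threshold without primary replicate 2 (log2 0.57, adjusted p = 0.046) or BV2 replicate 2 (log2 0.71, adjusted p = 0.04). Sall1, which in the brain's myeloid cells marks microglia but is also expressed by neural progenitors, had 14.9, 12.7 and 13.7 CPM in primary microglia and no read in BV2 cells (at least 28.7-fold higher). Tal1 and Lyl1, factors of early blood cells, were 3.34-fold and 2.55-fold higher in BV2 cells. Batf3 had 3 reads in primary microglia and 7.47 and 4.94 CPM in BV2 cells (ratio of BV2 over primary 16.6, 95% counting interval 5.27 to 83.9). Of 23 tested factors, 13 were 2-fold higher in primary microglia and 4 in BV2 cells (2 in BV2 cells with the length trend as offset). The promoter of Lyz2, a PU.1-bound macrophage gene, is shown for the letters of a PU.1 site, AGGAAGT, in capitals as its reverse complement. The window is chr10:117282253-117282432 (mm10, strand minus, RefSeq).
Lyz2: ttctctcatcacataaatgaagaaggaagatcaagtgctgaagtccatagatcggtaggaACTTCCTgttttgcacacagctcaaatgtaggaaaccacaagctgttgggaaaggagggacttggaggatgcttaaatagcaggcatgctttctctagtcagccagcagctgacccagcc
This match was in 5 of 14 pan-macrophage windows (35.7%) and in 9.57% of all promoters, and it says nothing of binding in either cell.

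Uptake and complement genes leaned to primary microglia, with strong exceptions. Among phagocytic, Fc and scavenger receptors, 14 of 29 tested genes were 2-fold higher in primary microglia and 5 in BV2 cells. The TAM receptors, which recognise dying cells through Gas6 and Pros1, were far lower in BV2 cells. Axl was at 109.9, 107 and 115 CPM in primary microglia and had 1 read in each BV2 library (ratio 346, 95% counting interval 95.5 to 2861). Mertk was at 75.9, 70.6 and 73.4 CPM against 3.73 and 7.25 CPM (13.3-fold, log2 difference 3.74 ± 0.29, adjusted p = 5.2e-10). Gas6, their ligand, had 111, 116 and 129 CPM in primary microglia and no read in BV2 cells (at least 247-fold higher). Another bridge to dying cells, Mfge8, went the other way, at 23.2, 26.5 and 23.9 CPM in primary microglia and 339 and 324 CPM in BV2 cells (13.5-fold, log2 difference -3.76 ± 0.15, adjusted p = 8.9e-18). The Fc receptors were split as well. Fcgr2b, the inhibitory receptor, was at 111, 101 and 107 and 9.02 and 7.91 CPM (12.5-fold higher in primary microglia), and Fcgr1, the activating high-affinity receptor, at 19.1, 13.5 and 14 and 179 and 146 CPM (10.5-fold higher in BV2 cells, log2 difference -3.38 ± 0.17, adjusted p = 1.4e-15). The scavenger receptor Marco had 40.4, 25.3 and 35.8 CPM in primary microglia and no read in BV2 cells (at least 70.4-fold higher), and Cd36 was at 216 ± 18.7 and 32.9 ± 3.38 CPM. Clec4e, the receptor Mincle, was at 2.62, 2.04 and 0.702 and 30.5 and 29 CPM (16.7-fold higher in BV2 cells). In the complement list, 12 of 19 tested genes were 2-fold higher in primary microglia and 3 in BV2 cells. The 3 chains of C1q lie side by side on chromosome 4 and did not move together. C1qa was at 419, 335 and 459.8 CPM in primary microglia and 37.6 and 42.9 CPM in BV2 cells (10.1-fold higher, log2 difference 3.33 ± 0.19, adjusted p = 6.1e-13), and C1qc was 1.54-fold higher (log2 difference 0.62 ± 0.15, adjusted p = 0.00068). C1qb was at 229, 189.8 and 256 and 479 and 449 CPM (2.06-fold higher in BV2 cells, log2 difference -1.04 ± 0.13, adjusted p = 9.7e-08), a difference that did not hold with the length trend as offset (log2 -0.18, adjusted p = 0.15). C2, which forms the C3 convertase with C4, had 32.9, 30.6 and 36.5 CPM in primary microglia and no read in BV2 cells (at least 69.4-fold higher), and C1ra, a protease of the C1 complex, was 7.73-fold higher in BV2 cells (log2 difference -2.90 ± 0.42, adjusted p = 6.3e-07). C3, the central component, was 2.71-fold higher in primary microglia, and the receptor C5ar1 2.73-fold higher in BV2 cells. Marker sums of other brain cells, given below, were higher in the same primary libraries. Their part in these uptake and complement results, Axl and Gas6 among them, was not tested.

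Genes of lipid-laden and disease-associated microglia were on both sides. Of 28 tested members, 9 were 2-fold higher in primary microglia and 5 in BV2 cells, near the background shares. Apoe, the lipid carrier, was at 11925, 11875 and 14405 CPM in primary microglia and 2018 and 1885 CPM in BV2 cells (6.53-fold, log2 difference 2.71 ± 0.15, adjusted p = 9.1e-15). Gpnmb was at 3515 ± 255 and 656 ± 51.6 CPM (5.36-fold). Spp1, osteopontin, was at 2576, 2247 and 2806 CPM in primary microglia and 8242 and 9132 CPM in BV2 cells (3.42-fold higher in BV2, log2 difference -1.77 ± 0.14, adjusted p = 2.1e-11). Lpl, lipoprotein lipase, was at 75.5 ± 7.01 and 602 ± 0.905 CPM (7.97-fold higher in BV2), and Cst7, an inhibitor of cathepsins, at 1.21 ± 0.852 and 11.8 ± 0.873 CPM. Among LXR targets and lipid genes, 11 of 23 were 2-fold higher in primary microglia and 5 in BV2 cells. Abca1, the cholesterol exporter, was at 932, 896 and 911 CPM against 30.2 and 34.3 CPM (28.3-fold, log2 difference 4.82 ± 0.15, adjusted p = 9.5e-20). The desaturase Scd1 had 72.1, 79.6 and 85.3 CPM and no read in BV2 cells (at least 165-fold higher). The part of other brain cells, whose marker sums are given below, in the lipid genes higher in primary microglia was not tested. In cholesterol synthesis and uptake, 3 of 23 tested genes were 2-fold higher in primary microglia and 4 in BV2 cells, among them Sqle, squalene epoxidase, which was 3.06-fold higher in BV2 cells (log2 difference -1.62 ± 0.13, adjusted p = 1.8e-11). In the lysosome list, 10 of 31 tested genes were 2-fold higher in primary microglia and 4 in BV2 cells (7 in BV2 cells with no scaling factor, 1 with the length trend as offset). The proteases Ctsb and Ctsd were 3.82-fold and 2.99-fold higher in primary microglia, Ctsl did not differ detectably (log2 difference -0.16 ± 0.11, adjusted p = 0.19; with the length trend as offset log2 -0.82, adjusted p = 1.2e-07), and Ctsk, the collagen-cutting cathepsin of osteoclasts, stood apart. It was at 8.59, 8.98 and 6.67 CPM in primary microglia and 2463 and 2352 CPM in BV2 cells (298-fold higher in BV2, log2 difference -8.22 ± 0.18, adjusted p = 2.8e-23; chr3:95499210-95509387, mm10).

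Inflammatory ligands were at low levels in primary microglia and higher in BV2 cells for several members, though no library here received LPS. Among chemokines, 8 of 21 tested genes were 2-fold higher in BV2 cells and 6 in primary microglia. With the length trend as offset the counts were 6 in BV2 cells and 7 in primary microglia, so this balance depends on scaling. From the 5 libraries without LPS alone, 12 were tested, 6 of them 2-fold higher in BV2 cells and 4 in primary microglia. Ccl2, which draws monocytes, was at 3.36, 1.63 and 2.81 CPM in primary microglia and 75.6 and 69.6 CPM in BV2 cells (27.9-fold, log2 difference -4.76 ± 0.25, adjusted p = 1.4e-14). Ccl3 was at 6.35, 8.57 and 13.3 and 143 and 139 CPM (15-fold, log2 difference -3.89 ± 0.19, adjusted p = 3.9e-16), Ccl4 at 1.73 ± 0.648 and 37.8 ± 0.643 CPM, and Ccl7 had 2 reads in primary microglia and 8.71 and 10.9 CPM in BV2 cells (ratio of BV2 over primary 38.9, 95% counting interval 10.3 to 329). Cxcl16, a membrane-bound chemokine, had 43.7, 43.3 and 50.5 CPM in primary microglia and no read in BV2 cells (at least 95.5-fold higher). Tnf was at 5.23, 3.67 and 5.62 CPM and 37 and 25.4 CPM (6.45-fold higher in BV2 cells, log2 difference -2.67 ± 0.23, adjusted p = 4.8e-11), and Il1rn, the interleukin-1 receptor antagonist, at 8.99 ± 0.723 and 48.7 ± 11.6 CPM. Il1b was near the floor in both, at 3.36, 2.86 and 1.75 and 3.11 and 2.31 CPM (log2 difference -0.04 ± 0.39, adjusted p = 0.93), and Il1a was at 6.44 ± 1.72 and 0.97 ± 0.492 CPM, higher in primary microglia. Tgfb3 had 13.5, 13.5 and 11.6 CPM in primary microglia and no read in BV2 cells (at least 26.7-fold higher). Lif, a cytokine of the interleukin-6 family, was at 12.3, 11 and 8.42 CPM and had 1 read over both BV2 libraries (ratio 65.8, 95% counting interval 11.5 to 2629.9). Of 24 tested cytokines, 7 were 2-fold higher in primary microglia and 5 in BV2 cells (11 and 5 with the length trend as offset). Of the 29 listed, 7 had no read in any of the 5 libraries. When these 5 libraries were filtered and fitted alone, 13 cytokines were tested, 5 of them 2-fold higher in primary microglia and 3 in BV2 cells. Of 14 listed chemokine receptors, 8 had enough counts to be tested, 7 of them 2-fold higher in primary microglia and 1 in BV2 cells. Those 7 had at most 18 reads over both BV2 libraries (Cx3cr1), apart from Cxcr4, and could pass the filter through the primary libraries where they were high, so the count is no measure of the whole list. Cxcr4 was at 263, 253 and 280.1 CPM against 24.3 and 25.7 CPM (10.6-fold, log2 difference 3.41 ± 0.16, adjusted p = 2.8e-16), and Csf3r, the receptor for G-CSF, at 114, 109 and 100.0 CPM against 2.18 and 2.64 CPM (44.8-fold, log2 difference 5.46 ± 0.24, adjusted p = 5.6e-17).

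Receptors and adaptors for LPS were read in both cells. Tlr4 was at 49.3, 32.2 and 50.5 CPM in primary microglia and 28 and 45.8 CPM in BV2 cells (log2 difference 0.26 ± 0.24, adjusted p = 0.33), with overlapping libraries. Without BV2 replicate 2 it passed the threshold (log2 0.65, adjusted p = 0.049). Cd14, its co-receptor, was 1.67-fold higher in BV2 cells (log2 difference -0.74 ± 0.13, adjusted p = 7.8e-06), not called with the length trend as offset (log2 -0.15, adjusted p = 0.18), and the adaptor Myd88 2.71-fold higher there (log2 difference -1.44 ± 0.17, adjusted p = 2.2e-08). Cd180, a receptor that dampens Tlr4 signals, was at 18.7 ± 1.05 and 84.2 ± 9.0 CPM (4.51-fold higher in BV2 cells). Tlr8 was at 43.4 ± 2.76 and 8.42 ± 4.87 CPM, higher in primary microglia. Of 27 tested genes of the pathway, 9 were 2-fold higher in primary microglia and 4 in BV2 cells, and with no scaling factor the counts were 5 and 6. Of 58 interferon-stimulated genes, 16 were 2-fold higher in primary microglia and 13 in BV2 cells, at low levels: Irf7, the amplifier of the interferon response, was at 1.54 ± 1.04 and 8.14 ± 1.25 CPM, and Oasl1 had 1 read in primary microglia and 10.6 and 9.23 CPM in BV2 cells. In antigen presentation, the class I chain H2-K1 did not differ detectably (289 ± 44.4 and 249 ± 19.4 CPM, log2 difference 0.21 ± 0.13, adjusted p = 0.15; with the length trend as offset log2 0.74, adjusted p = 2.6e-06) and its activator Nlrc5 was 3.43-fold higher in BV2 cells (log2 difference -1.77 ± 0.17, adjusted p = 3.7e-10). The class II chains H2-Aa and H2-Ab1 had no read in BV2 cells and at most 1.22 CPM in a primary library, while Cd74, the class II invariant chain, was at 0.747, 1.63 and 1.4 CPM in primary microglia and 37.3 and 37.9 CPM in BV2 cells (29.8-fold, log2 difference -4.86 ± 0.31, adjusted p = 1.5e-13). Of 18 tested class I genes, 4 were 2-fold higher in each of the cells. This even split depends on scaling, with 2 in primary microglia and 6 in BV2 cells with no scaling factor, and 7 and 4 with the length trend as offset. Of 17 listed class II and costimulation genes, 8 were tested, 2 of them 2-fold higher in primary microglia and 3 in BV2 cells. Cd274, the inhibitory ligand PD-L1, was at 51.9, 44.9 and 46.3 CPM in primary microglia and 5.91 and 4.29 CPM in BV2 cells (9.36-fold, log2 difference 3.21 ± 0.21, adjusted p = 3.2e-13). Of 17 tested inflammasome genes, 5 were 2-fold higher in primary microglia and 4 in BV2 cells (5 and 2 without BV2 replicate 1, 4 and 2 with the length trend as offset). Pycard, the inflammasome adaptor ASC, had 7.1, 8.98 and 13.3 CPM in primary microglia and no read in BV2 cells (at least 20.4-fold higher), and the sensor Nlrp3 was at 8.32 ± 1.54 and 22.3 ± 0.686 CPM (2.68-fold higher in BV2 cells).

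Surface receptors for growth factors, nucleotides and adhesion had members higher in each of the cells. Of 28 tested growth factor and cytokine receptors, 15 (53.6%) were 2-fold higher in primary microglia and 1 in BV2 cells (11 and 2 with the length trend as offset, 14 and 2 without BV2 replicate 1). Met, the receptor for hepatocyte growth factor, had 16.8, 22 and 19 CPM in primary microglia and no read in BV2 cells (at least 40.1-fold higher). Il21r was at 12.7, 10.6 and 10.5 CPM and had 1 read over both BV2 libraries (ratio 70.5, 95% counting interval 12.3 to 2816). Il13ra1, a chain of the interleukin-13 receptor, was at 18.3, 13.9 and 15.8 CPM in primary microglia and 41.7 and 40.9 CPM in BV2 cells (2.58-fold higher in BV2, log2 difference -1.36 ± 0.21, adjusted p = 1.5e-06). Of 23 tested purinergic receptors and ion channels, 9 (39.1%, near the 33.1% of all genes) were 2-fold higher in primary microglia and 3 in BV2 cells. Without BV2 replicate 2 the counts were 7 and 6 of 24 tested, and with no scaling factor 7 and 6 of 23. The ATP-gated channel P2rx4 was at 144 ± 22.2 and 45.2 ± 2.3 CPM (3.19-fold, log2 difference 1.67 ± 0.16, adjusted p = 3.1e-10), and P2rx7 at 69 ± 9.46 and 50.3 ± 1.61 CPM (1.37-fold, log2 difference 0.46 ± 0.16, adjusted p = 0.013). The call of P2rx7 was lost without BV2 replicate 1 (log2 0.41, adjusted p = 0.1) or BV2 replicate 2 (log2 0.48, adjusted p = 0.053). The adenosine receptors went opposite ways. Adora1 had 12.3, 15.1 and 14.4 CPM in primary microglia and no read in BV2 cells (at least 29-fold higher), and Adora2b was at 0.374, 0.816 and 0.351 CPM against 5.29 and 7.25 CPM (12.2-fold higher in BV2 cells). Of 19 tested integrins and adhesion genes, 9 were 2-fold higher in primary microglia and 2 in BV2 cells. Itgb2, the partner chain of CD11b, was at 163, 159.6 and 185 CPM in primary microglia and 39.5 and 31 CPM in BV2 cells (4.8-fold, log2 difference 2.26 ± 0.16, adjusted p = 1.6e-12). F11r, a junction molecule, had 30.3, 34.7 and 27 CPM and no read in BV2 cells (at least 63.9-fold higher), while Icam1, a ligand of Itgb2, was at 22.8, 17.1 and 17.5 CPM against 75.6 and 51.1 CPM (3.31-fold higher in BV2 cells, log2 difference -1.72 ± 0.19, adjusted p = 1.2e-08). Astrocyte, neuron and fibroblast marker sums, given below, were higher in the same primary libraries, and their part in these receptor and adhesion results was not tested.

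As fitted, the iron and redox lists were near or below the background shares, and single genes of iron uptake and release differed. Tfrc, the transferrin receptor that takes iron up, was at 60.9, 60.4 and 53.3 CPM in primary microglia and 328 and 404 CPM in BV2 cells (6.29-fold higher in BV2, log2 difference -2.65 ± 0.16, adjusted p = 1.1e-12). Slc40a1, ferroportin, which exports iron, was at 71.4, 92.2 and 84.6 CPM against 17.1 and 15.2 CPM (5.13-fold higher in primary microglia, log2 difference 2.35 ± 0.20, adjusted p = 2.8e-11). Cp, ceruloplasmin, which oxidises exported iron and which astrocytes also make, was at 29.5, 28.2 and 31.6 CPM and had 1 read in each BV2 library (ratio 93.2, 95% counting interval 25.5 to 774). The uptake transcript was higher in BV2 cells, and both export transcripts were higher in primary microglia. Of 15 tested iron genes, 5 (33.3%) were 2-fold higher in primary microglia and 2 (13.3%) in BV2 cells, against 33.1% and 22.6% of all genes. The count in BV2 cells was 1 under several settings, among them DESeq2's size factors, upper-quartile scaling and primary replicate 1 left out. With the length trend as offset the iron counts were 7 in primary microglia and 3 in BV2 cells. Hmox1, which frees iron from heme, was at 302 ± 36.3 and 57.6 ± 0.355 CPM (5.25-fold higher in primary microglia). Of 24 tested NRF2 target and redox genes, 8 (33.3%) were 2-fold higher in primary microglia, near the 33.1% of all genes. In BV2 cells the count was 1 (4.17%), the superoxide dismutase Sod1 (29.3 ± 2.76 and 66.2 ± 4.08 CPM). That count was 2 without BV2 replicate 2, 6 with no scaling factor and 3 with the length trend as offset. In nitric oxide and arginine metabolism, 5 of 13 tested genes were 2-fold higher in primary microglia and 3 in BV2 cells. Nos2, the inducible nitric oxide synthase, had 1 read over the 5 libraries, and Arg1, arginase, was at 8.36 ± 3.79 and 2.57 ± 0.558 CPM (log2 difference 1.69 ± 0.45, adjusted p = 0.0014). Heat shock and dissociation genes were split, with 4 of 10 tested 2-fold higher in each of the cells. Hspa8, the constitutive chaperone, was at 316, 294 and 369 CPM against 2406 and 2238 CPM (7.11-fold higher in BV2 cells, log2 difference -2.83 ± 0.12, adjusted p = 3.3e-17), and Hspb1, a small heat shock protein, had 4.11, 4.9 and 5.62 CPM in primary microglia and no read in BV2 cells (at least 10.2-fold higher). Of 6 tested structural RNAs, 5 were 2-fold higher in BV2 cells, 3 without BV2 replicate 2 and 1 with the length trend as offset. Terc, the telomerase RNA, was the one left under the offset, at 1.87, 2.04 and 3.51 CPM in primary microglia and 33.3 and 50.1 CPM in BV2 cells (16.9-fold, log2 difference -4.03 ± 0.32, adjusted p = 2.2e-11).

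Markers of other brain cells were also read in the primary libraries. Of the 18 astrocyte markers, 14 had no read in BV2 cells, and their summed level was 1333 to 2116 CPM in the primary libraries and 76.2 and 68.2 CPM in BV2 cells. Gfap, the intermediate filament of astrocytes, was at 597, 964 and 538 CPM in primary microglia and had no read in BV2 cells (at least 1457-fold higher, adjusted p = 0.00055), the largest difference of all genes with at least 20 CPM. Aqp4, the water channel of astrocyte endfeet, was at 149, 178 and 133 CPM, also with no read in BV2 cells. Primary replicate 2 held the most of both genes. In BV2 cells the astrocyte sum came from Aldoc (42.1 ± 0.765 CPM), Clu (27.3 ± 4.09 CPM) and Cpe (2.71 ± 0.568 CPM), which other cells express too. Markers of the oligodendrocyte lineage summed to 226 to 233 CPM in primary microglia and 28.3 CPM in each BV2 library, where Cnp gave most of it. Neuron markers summed to 108 to 109 CPM against at most 0.622 CPM. Ependymal and choroid plexus markers summed to 92.0 to 99.2 CPM against 0, with Foxj1, the factor of ciliated cells, at 59.4, 66.5 and 62.1 CPM. Fibroblast and meningeal markers summed to 176 to 408 CPM against 3.73 and 3.96 CPM, with Col3a1 at 76.6, 176 and 41.8 CPM. Markers of border-associated macrophages summed to 584 to 656 CPM against 188 and 192 CPM, and 6 of 7 tested were 2-fold higher in primary microglia, among them Ms4a7 (70.6 ± 6.91 and 3.71 ± 1.28 CPM). Pf4, of the same list, was 7.98-fold higher in BV2 cells. The monocyte, neutrophil and mast cell list summed to 14.9 to 20.4 CPM against 1.32 and 2.18 CPM, with Ccr2, Ly6c2, S100a9 and Mpo at 0 in primary microglia. In the lymphocyte list, Cd3e was at 0 and Cd4, which microglia and macrophages can express, gave most of the 7.35 to 10.9 CPM. The endothelial and mural list was split. Of 11 listed markers, 6 had no read in BV2 cells and 4 were tested, 2 of them 2-fold higher in primary microglia and 1 in BV2 cells (median log2 difference 1.89). Its sum was nonetheless higher in BV2 cells, 28.4 to 47.8 CPM against 111 and 137 CPM, through Kdr, the VEGF receptor (4.11, 3.67 and 2.81 CPM against 127 and 99.6 CPM), while Pecam1 had no read in primary microglia. In bulk RNA, more cells of a type, more RNA per cell and expression of a marker in the microglia themselves cannot be told apart. The part of these other cells in the differences of the other paragraphs was not tested.

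**Figure D4:**
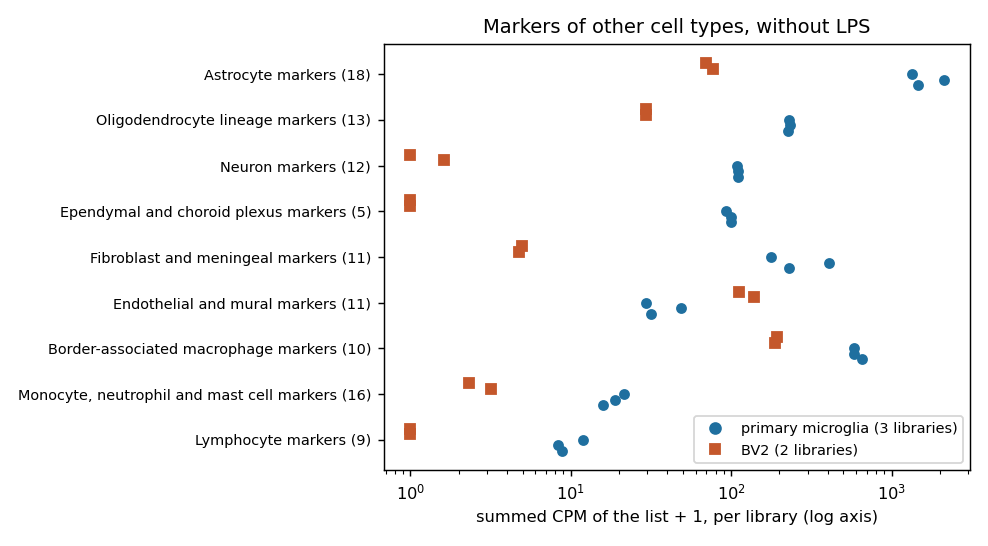
Summed CPM + 1 (x axis, log scale) of marker lists of other cell types (y axis, number of genes in parentheses) in each primary microglia library (circles) and each BV2 library (squares). Astrocyte, oligodendrocyte, neuron, ependymal and fibroblast sums are higher in every primary library, and the endothelial sum is higher in both BV2 libraries through Kdr.

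Matrix genes were higher in primary microglia with few exceptions. Of 23 tested matrix and collagen genes, 22 were 2-fold higher in primary microglia and 0 in BV2 cells. Of the 23, 19 had no read in BV2 cells and could pass the filter through the primary libraries where they were high. The direction of those 19 was thus fixed in advance, and the count is no test of the list. Fn1, fibronectin, was at 333, 342 and 227 CPM and had no read in BV2 cells (at least 626-fold higher, adjusted p = 0.0042). Of 19 tested matrix proteases and inhibitors, 14 were 2-fold higher in primary microglia. The same limit holds for 7 of the 20 listed, which had no read in BV2 cells. Timp3, an inhibitor of metalloproteases, was at 342, 320.4 and 329.9 CPM with no read in BV2 cells (at least 689-fold higher), and Mmp12, the macrophage elastase, at 185, 196 and 198 CPM against 2.8 and 1.98 CPM (80.8-fold). In the TGF-beta and activin pathway, 23 of 27 tested genes were 2-fold higher in primary microglia and 1 in BV2 cells (17 and 1 with the length trend as offset). Beside the receptor Tgfbr1, the target genes Smad7, Skil and Id3 were higher in primary microglia. Id3, an inhibitor of differentiation factors, was at 88.8 ± 9.96 and 8.51 ± 1.48 CPM (10.4-fold). Smad7, an inhibitor of the pathway, was at 38.5, 43.3 and 36.5 CPM against 2.49 and 3.63 CPM (12.9-fold, log2 difference 3.67 ± 0.28, adjusted p = 6.7e-12), and Skil at 149 ± 14.8 and 25.1 ± 5.1 CPM. Id1 was at 59.4, 56.7 and 61.4 CPM and had 1 read over both BV2 libraries (ratio 371, 95% counting interval 66.2 to 14667). The ligand Tgfb1 was at 32.9 ± 5.12 and 17 ± 2.96 CPM (log2 difference 0.94 ± 0.30, adjusted p = 0.0094), a call lost without BV2 replicate 1 (log2 0.76, adjusted p = 0.097). Nrros, which presents the latent ligand on microglia, was the exception, at 39.6, 42 and 46.7 CPM in primary microglia and 222 and 186 CPM in BV2 cells (4.77-fold higher in BV2, log2 difference -2.25 ± 0.16, adjusted p = 1.1e-12). The astrocyte sum (1333 to 2116 CPM) and fibroblast sum (176 to 408 CPM) were higher in the same primary libraries, and their part in the matrix and TGF-beta results was not tested.

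The complex that the inhibitor targets also differed. PRC2 deposits methyl groups on histone H3 lysine 27 through EZH2 or its relative EZH1, with EED and SUZ12 as core partners, and the demethylases Kdm6a and Kdm6b remove them. Ezh2 was at 17.2, 18.4 and 18.6 CPM in primary microglia and 46.7 and 46.1 CPM in BV2 cells (2.57-fold higher in BV2, log2 difference -1.36 ± 0.18, adjusted p = 2.2e-07). Ezh1 was at 37, 28.2 and 26.3 CPM and 15.2 and 10.9 CPM, 2.33-fold higher in primary microglia (log2 difference 1.22 ± 0.25, adjusted p = 0.0001). The libraries of the cells did not overlap in either gene. Suz12 was at 39.1 ± 4.57 and 90.3 ± 17.3 CPM (log2 difference -1.21 ± 0.22, adjusted p = 0.0001), Eed at 24.6 ± 2.92 and 52.3 ± 5.76 CPM (log2 difference -1.09 ± 0.20, adjusted p = 1.7e-05) and Rbbp7, a histone-binding subunit, at 60.8 ± 5.05 and 271 ± 11.3 CPM (4.45-fold higher in BV2). Kdm6a did not differ detectably as fitted (log2 difference 0.11 ± 0.15, adjusted p = 0.51) and was called higher in BV2 cells with the length trend as offset (log2 -0.52, adjusted p = 0.003). Epop (listed as E130012A19Rik), an accessory subunit, was at 1.87, 1.22 and 2.46 CPM and 14.3 and 20.4 CPM (9.39-fold higher in BV2), and Phf1, another, at 12.3, 11 and 17.2 and 2.18 and 1.65 CPM (7.07-fold higher in primary microglia). Kdm6b, low in both, was at 10.3 ± 1.78 and 3.21 ± 0.584 CPM (log2 difference 1.67 ± 0.43, adjusted p = 0.0015). Of 14 tested members, 7 were 2-fold higher in BV2 cells and 4 in primary microglia (7 and 2 with the length trend as offset). The PRC1 list, whose complexes read or add histone marks beside PRC2, showed little: of 19 tested, 3 were 2-fold higher in primary microglia and 2 in BV2 cells (1 in BV2 cells without primary replicate 2 or BV2 replicate 2), and Rnf2, its catalytic subunit, did not differ detectably (log2 difference 0.04 ± 0.19, adjusted p = 0.85). Pcgf2 was 5.89-fold higher in primary microglia and Pcgf6, of another form of the complex, 5.49-fold higher in BV2 cells. Of 48 Hox and other developmental genes that are typical Polycomb targets, 11 had enough counts to be tested, and 10 of these were 2-fold higher in primary microglia. They include Sox2 (56.1, 65.7 and 52.6 CPM), Sox9 (40.7, 46.9 and 21.1 CPM) and Pax6 (7.85, 6.94 and 10.9 CPM). These are genes of neural progenitors and astrocytes, each with no read in BV2 cells. The filter passed such genes only through the primary libraries where they were high, so the count is no measure of the whole list. Marker sums of other brain cells were higher in the same primary libraries, and their part in this count was not tested. None of the Hox genes had enough counts, and Hoxb9 was read only in BV2 cells (2.8 and 1.98 CPM). Methylation genes gave 6 of 14 tested 2-fold higher in BV2 cells and 3 in primary microglia, with Dnmt3l, a cofactor of de novo methylation in germ cells, at 0, 1.22 and 0.351 CPM in primary microglia and 12.1 and 9.89 CPM in BV2 cells (21-fold, log2 difference -4.35 ± 0.57, adjusted p = 2.3e-07). Dnmt1, the maintenance enzyme, was at 64.4 ± 5.7 and 91.3 ± 9.4 CPM (log2 difference -0.50 ± 0.16, adjusted p = 0.0058), a call lost without BV2 replicate 2 (log2 -0.41, adjusted p = 0.082). Uhrf1, which recruits it at replication, was at 12, 9.8 and 7.02 CPM against 145 and 137 CPM (14.7-fold higher in BV2).

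Sex-linked genes differed as well: 5 of 8 tested were 2-fold higher in primary microglia and 1, the X-linked translation factor gene Eif2s3x (68.9 ± 6.06 and 363 ± 15.3 CPM), in BV2 cells. The Y-linked genes Ddx3y, Eif2s3y, Uty and Kdm5d had reads in every primary library, which held pooled pups, and none in BV2 cells. Ddx3y, the most abundant, was at 23.9, 20.8 and 25.6 CPM (at least 48.8-fold higher). Xist, the RNA of X inactivation, was at 485, 538 and 467 CPM in primary microglia and 122 and 168 CPM in BV2 cells (log2 difference 1.77 ± 0.17, adjusted p = 3.3e-09), but it is very long, and with the length trend as offset the difference was 0.22, adjusted p = 0.14.

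By fitted log2 difference, the 12 largest towards primary microglia among called genes with at least 20 CPM had no read in BV2 cells. They were Gfap, Ncan, Timp3, Fn1, Nedd4, Rprl3, Gpm6b, Tubb2b, Cnn3, Cd24a, Nnat and Ctgf, from at least 1457-fold to at least 327-fold higher. Ncan, neurocan, and Gpm6b are known from astrocytes and neural progenitors, and Tubb2b is a neuronal tubulin. Rprl3 is an RNase P RNA-like gene with close copies, so its share of reads is uncertain. Nedd4, a ubiquitin ligase that is widely expressed, was at 273, 307 and 257 CPM, more even across libraries than Gfap. Towards BV2 cells the largest fitted differences began with Abcc8 (26.8 and 28 CPM and no read in primary microglia, at least 72.8-fold higher) and Mgl2 (22.1 and 24.1 CPM, at least 61.3-fold higher). Then came Slc6a12, Ctsk, Tcam1, Fxyd2, Cacna1f, Hist1h2bh, Car12, Pla2g5, Hist1h3g and Napsa. A fitted value is no bound where a group has no read. The bounds of Abcc8 and Mgl2 lie below the values of Slc6a12 (below), Ctsk (298-fold) and Tcam1 (ratio 300). Abcc8 is the sulfonylurea receptor, a subunit of ATP-sensitive potassium channels. Mgl2 is a lectin of alternatively activated macrophages, and its neighbour Clec10a was at 0.736 ± 0.323 and 21.5 ± 5.68 CPM. Slc6a12, a betaine and GABA transporter, was at 102 and 93 CPM in BV2 cells and had 2 reads in primary microglia (ratio of BV2 over primary 389.9, 95% counting interval 107 to 3227).

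Much of the difference was shared by the libraries that received LPS, which are other samples of the same cells. Of the 6474 genes called at least 2-fold without LPS, 5807 (89.7%) were called in the same direction between primary microglia and BV2 cells with LPS, 98 in the opposite direction, and 569 were not called.

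Transcript length moved with the comparison. The slope of log2 level per doubling of transcript length was 0.39, 0.38 and 0.30 in the primary libraries and -0.30 and -0.25 in the BV2 libraries, so long transcripts were read relatively more in primary microglia. By quartile of length, from the shortest to the longest, the median log2 difference was -0.62, -0.03, 0.40 and 1.06. Genes 2-fold higher in primary microglia had a median length of 4303 bases, those higher in BV2 cells 2525 bases and the others 3508 bases. With each library's trend taken out as an offset, the medians by quartile were 0.06, 0.20, 0.23 and 0.28, and 8338 genes were called, 3571 of them 2-fold higher in primary microglia and 2334 in BV2 cells. All 31 mitosis genes and 35 of 36 replication genes stayed 2-fold higher in BV2 cells under the offset, and the counts of the homeostatic list were 12 in primary microglia and 1 in BV2 cells. The part of RNA quality or library preparation in this trend was not tested.

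**Figure D5:**
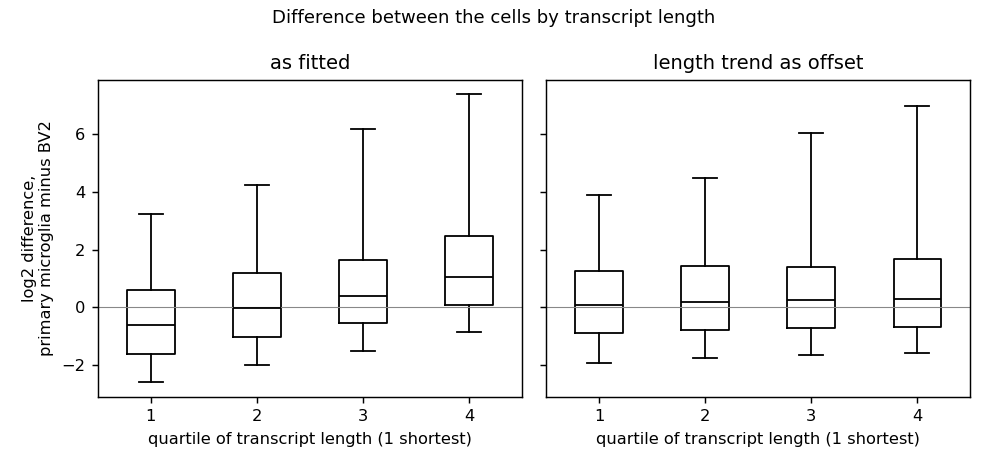
Log2 difference (y axis, primary microglia minus BV2 cells) of tested genes by quartile of transcript length (x axis), as fitted on the left and with each library's length trend as offset on the right. Boxes span the middle 50% of genes with the median as a line, and whiskers reach the 10th and 90th percentiles. The medians climb from -0.62 to 1.06 on the left and lie between 0.06 and 0.28 on the right.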

How the data were processed

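RNA-seq libraries were depleted of ribosomal RNA and made with a strand-marking kit, per the labels' protocols. CASAVA 1.8.2, Trimmomatic 0.33, STAR 2.5.1, DESeq2 and the mm10 build are named in the submitters' processing notes; which annotation was counted is not stated there. The deposited files hold raw read counts per gene as the authors' STAR runs wrote them. Column 4, the count for reads whose second strand matches the gene, was used without its first 4 rows, which name no gene and held 74.2% to 79.5% of reads. Counts per library after this were 2.75 to 3.11 M. The fit was also run on simulated counts with known changes, which took their means and 1 common spread from these data. It recovered 13 of 50 changes of 1.5-fold and 32 of 50 of 2-fold. All 50 of 4-fold and all 50 of 8-fold were recovered, with 7 false calls among the other genes. In the simulation all other genes had equal means in the groups, up and down changes were balanced, and there was no length trend. In the data 74.1% of genes were called, so the simulation gives no error rate for this comparison.

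All 10 libraries in 4 groups were fitted in edgeR 4.0.16 (limma 3.58.1, R 4.3.3) with TMM scaling, a filter on low counts (minimum count 10, minimum total 15) and the robust quasi-likelihood F test, so the LPS libraries share the estimate of spread. The contrast was primary microglia minus BV2 without LPS, with Benjamini-Hochberg adjustment and a threshold of 0.05. SE is the absolute log2 difference divided by the square root of F. Genes at 0 in a group got a lower bound against 3 counts over that group, and those with 1 to 3 counts a ratio with an exact 95% interval. Symbols were matched to RefSeq GRCm38.p6 (23194 of 24411) for coordinates and promoters. Transcript length was that of the longest GENCODE transcript with the same symbol, found for 96.6% of tested genes. The text names the 12 largest differences in each direction among called genes that do not overlap between groups and reach 20 CPM, marked members of 50 lists, and the called member of each list with the largest difference in each direction, as far as they show the list's range. Other names were chosen after their values were seen. A few genes that the rule names are not reported here. The members and the 50 lists were chosen with earlier results of these data known. Alternatives were other scalings, no filter, DESeq2 1.42.0, the 5 libraries alone, unstranded counts, structural RNAs left out and a replicate block. Others were each library left out, and edgeR's glmTreat test of a difference above 2-fold. Leaving out the 5 abundant entries and the length offset (a loess curve of log2 level on transcript length per library) were added after seeing the data.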

Additional observations from a re-analysis of the deposited data

Results flagged for a closer look

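The difference between primary microglia and BV2 cells itself differed between libraries without and with LPS in 1418 of 11626 genes, by an interaction test (edgeR's quasi-likelihood test, Benjamini-Hochberg adjusted p under 0.05). Of the genes named in the report, 54 are among them. Changes below are the log2 difference between the cells without LPS minus that with LPS, so a negative change means that primary microglia stood relatively higher with LPS.

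In 18 named genes the direction turned, with both differences called. Among chemokines and cytokines these were Ccl2 from -4.76 to 0.96 (change -5.72), Ccl3 from -3.89 to 1.66 (change -5.55), Ccl4 from -4.40 to 1.62 (change -6.02), Ccl7 from -5.07 to 2.20 (change -7.27), Il1rn from -2.43 to 1.75 (change -4.18) and Tnf from -2.67 to 2.24 (change -4.91). Among interferon-linked genes they were Irf7 from -2.40 to 5.18 (change -7.59), Nlrc5 from -1.77 to 2.78 (change -4.55) and Oasl1 from -5.90 to 3.66 (change -9.55). The others were Adgre1 from -0.28 to 0.89 (change -1.18), Cd14 from -0.74 to 1.53 (change -2.28), Clec4e from -4.05 to 1.35 (change -5.40), Etv5 from -0.87 to 0.49 (change -1.36), Fcgr1 from -3.38 to 0.61 (change -4.0), Icam1 from -1.72 to 1.65 (change -3.37), Il13ra1 from -1.36 to 1.01 (change -2.38), Myd88 from -1.44 to 1.24 (change -2.69) and Nlrp3 from -1.42 to 1.96 (change -3.38). Oasl1 and Ccl7 rest on 3 reads or fewer in the primary libraries without LPS, so their fitted values are not bounds.

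6 named genes were called only without LPS, with changes of -3.14 for Adora2b, -1.53 for C5ar1, -2.36 for Cd180, 3.6 for Cebpa, -3.59 for Cst7 and -0.79 for Spi1. Cebpa stood 3.39 higher in primary microglia without LPS and at -0.21 with it. 4 were called only with LPS, with changes of -0.73 for Ctsl, -1.11 for H2-K1, -2.92 for Il1b and -1.62 for Ptprc. In the other 26 both differences were called in 1 direction and differed in size. The changes were -0.64 for C1qb, -2.10 for C1ra, -1.25 for C3, -3.30 for Cd274, -2.25 for Cd74, -1.66 for Cdkn1a, -0.82 for Cnp, -1.17 for Dusp6, -1.60 for E130012A19Rik, -0.84 for Hmox1, -1.07 for Ldha, -0.95 for Lpl, -0.68 for Mcm6, -1.60 for Ms4a7, -1.24 for Pcna and -1.07 for Pgk1, and, where the gap towards primary microglia was smaller or that towards BV2 cells larger with LPS, 0.99 for Abca1, 1.88 for Csf3r, 1.04 for Dnmt1, 1.13 for Fcgr2b, 0.75 for Gpnmb, 2.24 for Id3, 3.05 for Lyl1, 4.64 for Marco, 1.03 for Mef2a and 1.16 for Nrros. Marco had no read in BV2 cells without LPS, so its fitted value is no bound.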

How the results depend on the processing

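The number of genes called stayed within 1.5 times of 8611 under all 16 other settings, as did the counts in each direction. With other scaling factors it was 8631 (DESeq2's size factors) and 8641 (upper quartile), and 7689 with none, where 47.8% of calls were higher in primary microglia, against 56.1%. It was 9834 with no filter on low counts, 8599 with DESeq2, 8717 from the 5 libraries alone and 8645 from unstranded counts. The number was 8753 without structural RNAs, 8775 without the 5 abundant entries and 8338 with the length offset. Leaving out each library in turn gave 7842 to 8264 calls, with 3725 to 4009 genes at least 2-fold higher in primary microglia and 2549 to 2682 in BV2 cells. A replicate block gave 8561 calls, 3882 and 2666 of them at least 2-fold. Testing for a difference above 2-fold (edgeR's glmTreat) gave 3008 genes higher in primary microglia and 1936 in BV2 cells, against 3847 and 2627 called with an estimate of at least 2-fold. The labels do not say that a replicate number marks a shared culture. Primary and BV2 libraries of the same number deviated together at -0.0525 and 0.0705 (correlation across genes). The deviations of the 2 BV2 libraries mirror each other by construction, so these values cannot decide whether the block is a paired design. Pairing of libraries without and with LPS was not tested.

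Of 212 named genes tested, 187 kept direction and call under all settings. The sign turned with the length offset for Bax (0.086), Kdm6a (-0.52) and Tyrobp (0.92). Counts of list members moved by over 1.5 times in 67 of 1600 pairs of a list count and a setting, most of them counts of a few genes. Except for the length offset, whose construction removes the trend with length, the cause of these moves was not tested. With 1.11 to 1.71 M counts outside the abundant RNAs, small differences in genes of a few CPM are the least certain.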
